A study of Mus musculus with 4 samples.

Results

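The genes described here are the mouse enzymes that add or remove acetyl and methyl groups on histones and the bromodomain proteins that read acetylation. They were chosen by gene name: the Kat2 to Kat8, Hdac, Sirt, Kdm, Kmt, Setd, Prmt and Brd families, with Crebbp, Ep300 and Ep400. This name pattern fits 79 protein-coding mouse genes in RefSeq, and 43 of them were named by at least 1 region in the deposited lists, out of 10925 genes named in all. The acetyl mark H3K27ac, found at active promoters and enhancers, was profiled by CUT&Tag in liver of wild-type C57/BL6J mice. One group of 2 libraries came from sham-operated animals, with no time in their labels and 0 h in the series' design text. The other group of 2 libraries came from animals 12 h after 70% hepatectomy (PHx), the removal of most of the liver, after which the remnant regrows. The labels do not say which animals the libraries came from, so replicates may be technical, and time after surgery cannot be told apart from hepatectomy.

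Histone acetyltransferases ("writers") attach acetyl groups to lysines, deacetylases ("erasers") remove them, and bromodomain proteins ("readers") bind the acetylated tail and recruit the transcription machinery. Methyltransferases and demethylases do the same for methyl groups on lysine and arginine, where the effect depends on the residue. Crebbp and Ep300 are the main enzymes that lay down H3K27ac itself, the mark measured here. The name pattern is wider than histone chemistry. Sirt5 acts mainly in mitochondria, Hdac10 on polyamines and Prmt3 on a ribosomal protein.

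Each group had 1 merged list of regions with positions and widths but no signal, so each gene has 1 value per group, no replicate error and no test. The sham list held 11602 regions covering 122 Mb and the PHx list 10170 regions covering 197 Mb. The sequencing depth behind them is unknown. A gene was called marked when a region overlapped 1 kb on either side of its transcription start site (TSS), taken as the most upstream start listed for it. In bulk liver, fewer cells carrying a mark and less mark per cell cannot be told apart. As a check of the tissue, 6 hepatocyte markers could be placed, and 5 of them (Alb, Ttr, Apoa1, Apoa2 and Hnf4a) had a promoter region in both groups. The remaining one, Cps1, was marked after PHx only.

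Of the 43 genes, 33 were marked in both groups (76.7%, against 59.1% of all 10925 genes and 66% of the protein-coding ones). The genes of the name pattern without a region naming them have no known state, so these shares hold for the listed genes only. Another 5 were marked after PHx only (11.6%, against 17.8% of all genes and 15.4% of the protein-coding ones), namely the acetyltransferase genes Crebbp and Kat5, the demethylase genes Kdm3b and Kdm5c, and the reader gene Brd3. In sham only, 3 were marked (6.98%, against 8.19% and 9.79%): the demethylase genes Kdm1a and Kdm4c and the arginine methyltransferase gene Prmt3. Kat6a and Kmt2e had no region at the listed start in either group (4.65%, against 14.9% and 8.79%). The share marked in sham only was near that of all genes, and the share marked after PHx only was below both backgrounds. Peak numbers run in order along the genome within each library, so a missing number marks a peak that is in no listed region. Of these 8 genes only Brd3 was left when genes with such missing numbers around the start in the other group, or where they could not be counted, were set aside.

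Several markers of other liver cells were marked after PHx only, as was the hepatocyte marker Cps1. The share marked after PHx only was 17.8% over all genes and 15.4% over the protein-coding ones. Of 6 endothelial markers, 5 (Cdh5, Pecam1, Erg, Lyve1 and Clec4g) had a promoter region after PHx only and Stab2 in neither list. All 3 listed stellate cell and fibroblast markers (Colec11, Col4a1 and Sparc) and 2 of 4 Kupffer cell and macrophage markers (Csf1r and Mpeg1) were marked after PHx only, and Cd68 and C1qa in both. No marker was marked in sham only, no lymphocyte marker was listed, and the cholangiocyte marker Sox9 was in both. The part of these cells in the 5 genes marked after PHx only was not tested.

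The promoters of the genes marked in 1 group only are shown first, with Kat6b as the gene with the highest width ratio. They are the 250 bases before a RefSeq start on GRCm38.p6, 5′ to 3′ along the gene; the regions themselves are on GRCm39, and no coordinate was converted between the builds. Kdm3b is not shown, and for Kat5, Kdm4c and Kat6b 1 of 2 RefSeq starts is shown. Capitals mark matches on either strand to the GC box (GGGCGG), the CCAAT box (CCAAT), the E-box (CACGTG) and the AP-1 motif (TGAGTCA).
Crebbp, chr16:4213405-4213654, minus strand: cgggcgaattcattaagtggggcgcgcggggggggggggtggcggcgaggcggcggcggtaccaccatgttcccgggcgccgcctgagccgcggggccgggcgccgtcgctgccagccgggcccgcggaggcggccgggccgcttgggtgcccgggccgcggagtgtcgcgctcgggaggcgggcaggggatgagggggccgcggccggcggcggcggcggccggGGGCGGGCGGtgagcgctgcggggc
Kat5, chr19:5610095-5610344, minus strand: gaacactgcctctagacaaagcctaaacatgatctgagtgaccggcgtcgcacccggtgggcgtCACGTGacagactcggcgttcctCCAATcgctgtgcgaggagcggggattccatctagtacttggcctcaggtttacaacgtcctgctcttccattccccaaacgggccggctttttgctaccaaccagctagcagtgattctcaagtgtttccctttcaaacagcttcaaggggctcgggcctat
Kdm5c, chrX:152232977-152233226, plus strand: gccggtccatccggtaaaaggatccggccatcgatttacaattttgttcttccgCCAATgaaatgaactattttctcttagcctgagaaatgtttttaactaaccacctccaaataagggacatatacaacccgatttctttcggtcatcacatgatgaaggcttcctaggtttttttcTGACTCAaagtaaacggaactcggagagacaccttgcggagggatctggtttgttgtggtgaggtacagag
Brd3, chr2:27475399-27475648, minus strand: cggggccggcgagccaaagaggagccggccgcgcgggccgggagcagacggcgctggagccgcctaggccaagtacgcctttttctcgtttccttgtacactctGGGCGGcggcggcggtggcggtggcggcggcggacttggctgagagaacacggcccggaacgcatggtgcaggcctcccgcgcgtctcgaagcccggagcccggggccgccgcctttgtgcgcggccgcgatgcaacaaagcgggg
Kdm1a, chr4:136602724-136602973, minus strand: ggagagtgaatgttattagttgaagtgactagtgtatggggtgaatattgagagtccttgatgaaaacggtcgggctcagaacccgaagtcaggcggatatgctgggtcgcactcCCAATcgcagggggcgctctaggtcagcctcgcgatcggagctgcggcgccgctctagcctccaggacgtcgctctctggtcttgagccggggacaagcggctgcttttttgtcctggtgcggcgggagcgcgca
Kdm4c, chr4:74251629-74251878, plus strand: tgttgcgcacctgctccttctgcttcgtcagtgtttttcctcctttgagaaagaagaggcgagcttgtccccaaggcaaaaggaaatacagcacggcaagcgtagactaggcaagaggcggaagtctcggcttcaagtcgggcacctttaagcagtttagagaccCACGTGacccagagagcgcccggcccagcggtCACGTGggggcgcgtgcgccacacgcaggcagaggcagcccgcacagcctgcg
Prmt3, chr7:49778108-49778357, plus strand: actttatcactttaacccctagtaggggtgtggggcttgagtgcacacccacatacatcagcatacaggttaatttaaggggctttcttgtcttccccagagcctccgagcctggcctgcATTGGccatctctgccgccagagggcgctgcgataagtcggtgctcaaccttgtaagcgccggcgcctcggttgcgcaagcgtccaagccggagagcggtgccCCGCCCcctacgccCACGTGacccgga
Kat6b, chr14:21499520-21499769, plus strand: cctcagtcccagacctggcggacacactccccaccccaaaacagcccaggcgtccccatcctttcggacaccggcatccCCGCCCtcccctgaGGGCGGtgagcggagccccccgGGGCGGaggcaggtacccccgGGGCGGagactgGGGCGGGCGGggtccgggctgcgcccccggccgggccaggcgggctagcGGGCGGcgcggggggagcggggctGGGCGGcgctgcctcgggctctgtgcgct

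The Kat6b stretch held 8 GC boxes and that of Crebbp 2, while the shown stretches of Kat5, Kdm5c, Kdm1a and Kdm4c held none. The stretch at the other Kat5 start, not shown, held 3. E-boxes stood in the stretches of Kat5, Kdm4c and Prmt3. The only AP-1 match in these 8 stretches was in Kdm5c. A GC box was thus present or absent among the genes marked after PHx only and among those marked in sham only alike. A match is only a run of letters and not evidence of binding.

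RefSeq promoters of 300 bases (250 before and 50 after the start) were found for 34 of the 43 genes, 48 windows in all. They were rich in CpG: 42 of 48 (87.5%) had an observed over expected CpG ratio of at least 0.6, against 35.8% of all 32851 windows and 65.5% of the windows of protein-coding genes marked in either group. The median ratio was 0.853, against 0.384 and 0.735, and the median GC content 63.8%, against 52.7% and 61.3%. The GC box was in 75% of the 48 windows, against 35.7% of all windows and 62.3% of the marked ones. The CCAAT box was in 37.5%, against 37.4% and 36.4%, and the E-box in 10.4%, against 7.15% and 9.67%. AP-1 matches stood in 10.4%, against 5.2% and 4.26%; these 5 windows belonged to 4 genes, Kat2b, Kdm3a, Kdm4a and Kdm5c. No window held a TATA box (TATAAA), which 13.6% of all windows and 7.62% of the marked ones hold. None held the CRE (TGACGTCA, 1.79% of all windows), the E2F motif (GGCGGGAA, 2.19%) or the YY1 motif (0.633%). The ETS motif (CCGGAAGT) was in 4.17%, against 3.89%, and the NRF1 motif in 2.08%, against 0.971%. All motifs were searched on both strands, and where matches overlapped, as the E2F motif and the GC box can, each was counted. CpG-dense windows were thus more frequent among these genes than among marked genes at large, without a test, and windows of the same gene are not independent.

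**Figure D1:**
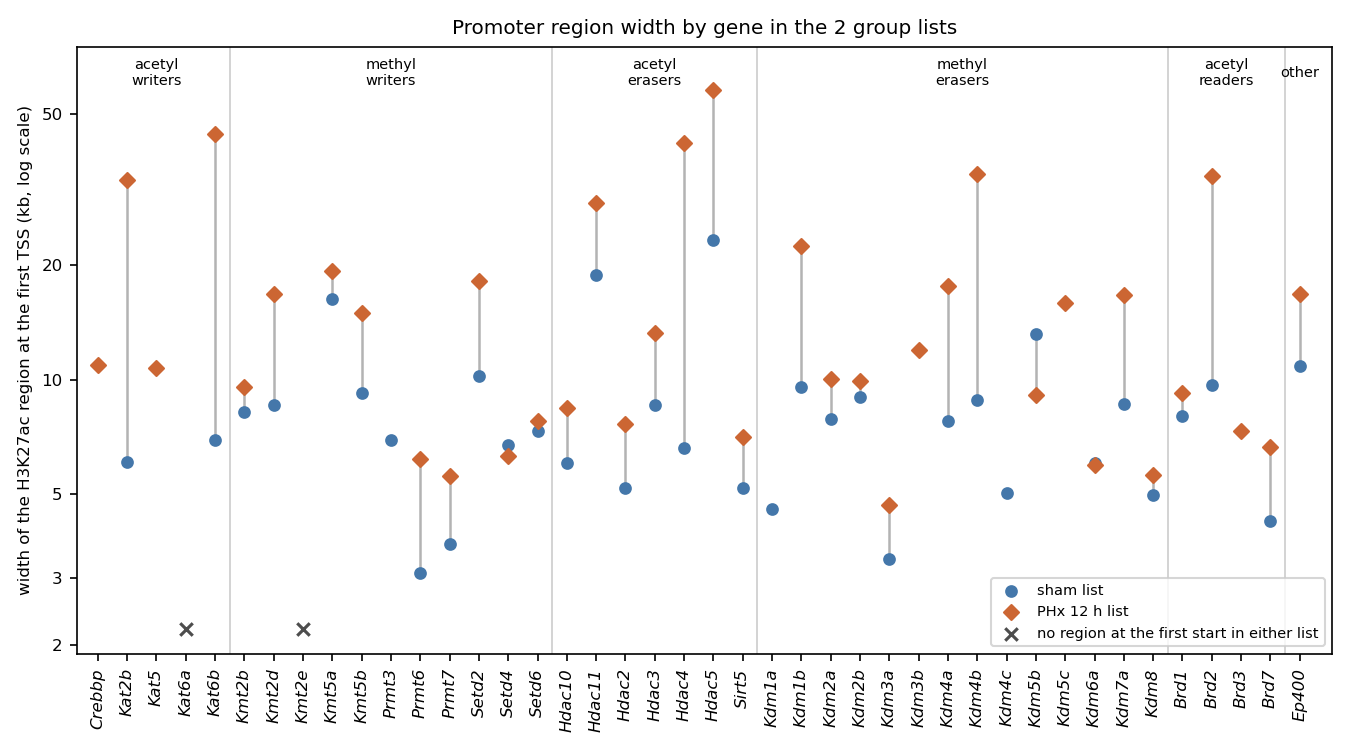
Width in kb (log scale) of the H3K27ac region at the first listed TSS of the genes, grouped by role; blue circles are the sham list, orange diamonds the PHx 12 h list, and crosses mark genes with no region in either. Genes with both symbols mostly have the orange one above, with Kat6b, Hdac4 and Kat2b farthest apart and Kdm5b the other way round.

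At the 33 genes marked in both groups the region was mostly wider after PHx, as it was over all genes. Their median width went from 8010 to 13225 bp, and the median ratio of PHx over sham was 1.55 (quartiles 1.19 and 2). Over all 6459 genes marked in both groups the widths were 9062 and 17999 bp and the ratio 1.74 (quartiles 1.24 and 2.81). A region at least 2-fold wider after PHx was found at 8 of the 33 genes (24.2%), against 41.3% of all genes. None was at least 2-fold narrower, against 0.403%. A region narrower by any amount was found at 3 (9.09%), against 8.53%. By width among all genes marked in the same group, the median rank of these 33 genes was percentile 46.2 in sham and 36.8 after PHx. The genes they were ranked against thus differ between the groups. Regions at histone-modifying genes were thus mostly wider after PHx, as at most genes, and the median ratio was below that of all genes, with a few wide exceptions among writers, erasers and readers.

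The exceptions were Kat6b, Hdac4, Kat2b, Kdm4b, Brd2, Hdac5, Kdm1b and Kdm4a, in falling order of ratio from 6.39 to 2.26. Prmt6 lay just under the limit of 2, with Kmt2d at 1.96 and Kdm7a at 1.93. When widths were divided by the median width of all regions in their group (8152.5 bp in sham and 14550.5 bp after PHx), 4 genes remained at least 2-fold: Kat6b, Hdac4, Kat2b and Kdm4b. On that scale 11 of the 33 genes were above 1.

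**Figure D2:**
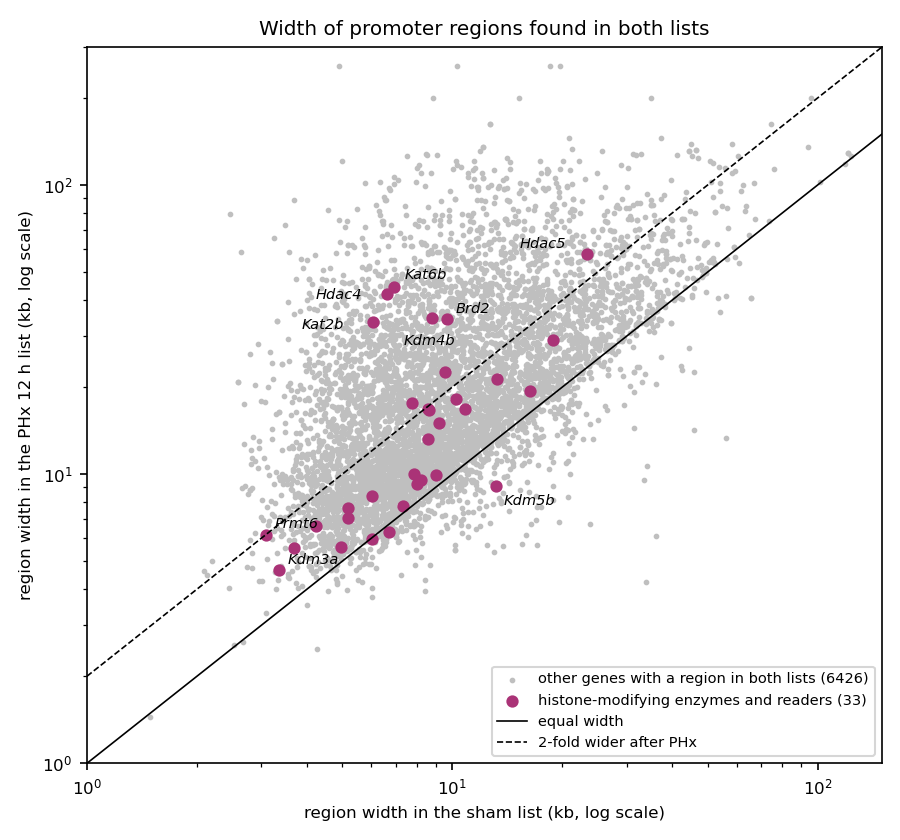
Width in kb of the promoter region in the PHx 12 h list against that in the sham list, both on log scales, for the 33 genes (purple) and the other genes marked in both groups (grey). The solid line is equal width and the dashed line a region 2-fold wider after PHx; 8 purple points lie above the dashed line and 3 below the solid line.

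Among the acetyltransferases, the writers of the mark family mapped here, 2 of 5 were marked after PHx only, 2 in both groups and 1 in neither, against 17.8%, 59.1% and 14.9% of all genes. A set of 5 genes is too small to read these shares as a trait of the family. Crebbp encodes CBP, 1 of the pair of enzymes that acetylate H3K27. No sham region lay closer than 132702 bp to its TSS, while after PHx a region of 10891 bp (chr16:4023896-4034786) reached 2923 bp upstream and 7967 bp into the gene. In the stretch around the Crebbp start 2 peak numbers of sham library 1 and 3 of sham library 2 belonged to no listed region. Peaks called in the sham libraries may therefore have been left out of the merged list there, so absence from the list is not absence of the mark. Its partner Ep300 was named by no region and was not analysed here.

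Kat5 encodes Tip60, which acetylates H4 and the variant H2A.Z. After PHx its region of 10713 bp (chr19:5651088-5661800) covered the TSS and the start of the neighbour Rnaseh2c. In sham a region of 6471 bp named for Rnaseh2c ended 2546 bp short of the Kat5 TSS, inside the gene. The difference was thus an extension over the start by a few kb, and with the demand that no base be shared between the groups Kat5 dropped from the genes marked after PHx only.

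Kat6b, a MYST-family enzyme that acetylates H3, had a sham region of 6949 bp and a PHx region of 44400 bp, a ratio of 6.39. The added length lay mostly inside the gene: reach downstream of the TSS went from 4830 to 37142 bp, and reach upstream from 2118 to 7257 bp. The PHx region (chr14:21542027-21586426) held no other listed sham region, and it also covered a further listed start 31242 bp downstream. Unlisted sham peaks were not counted there. Regions covered 8.32% of the gene in sham and 42.3% after PHx. In the PHx list this region was made from 1 peak of library 1 and 2 of library 2.

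Kat2b encodes PCAF, which acetylates H3K9 among other targets. Its sham region was 6059 bp and its PHx region 33483 bp, a ratio of 5.53. The PHx region also holds a second sham region of 21472 bp at another start 17352 bp downstream. Against the sum of both sham regions, 27531 bp, the ratio was 1.22.

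Kat6a, the paralogue of Kat6b, was listed at a single start with no region in either group. A sham region of 8678 bp lay 18458 bp upstream of that start and was annotated to a Kat6a intron, so at least 1 annotated Kat6a transcript starts farther upstream than the listed start. After PHx a region of 39364 bp named for Gm46036 lay over that sham region. The listed start therefore does not stand for the first Kat6a promoter.

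**Figure D3:**
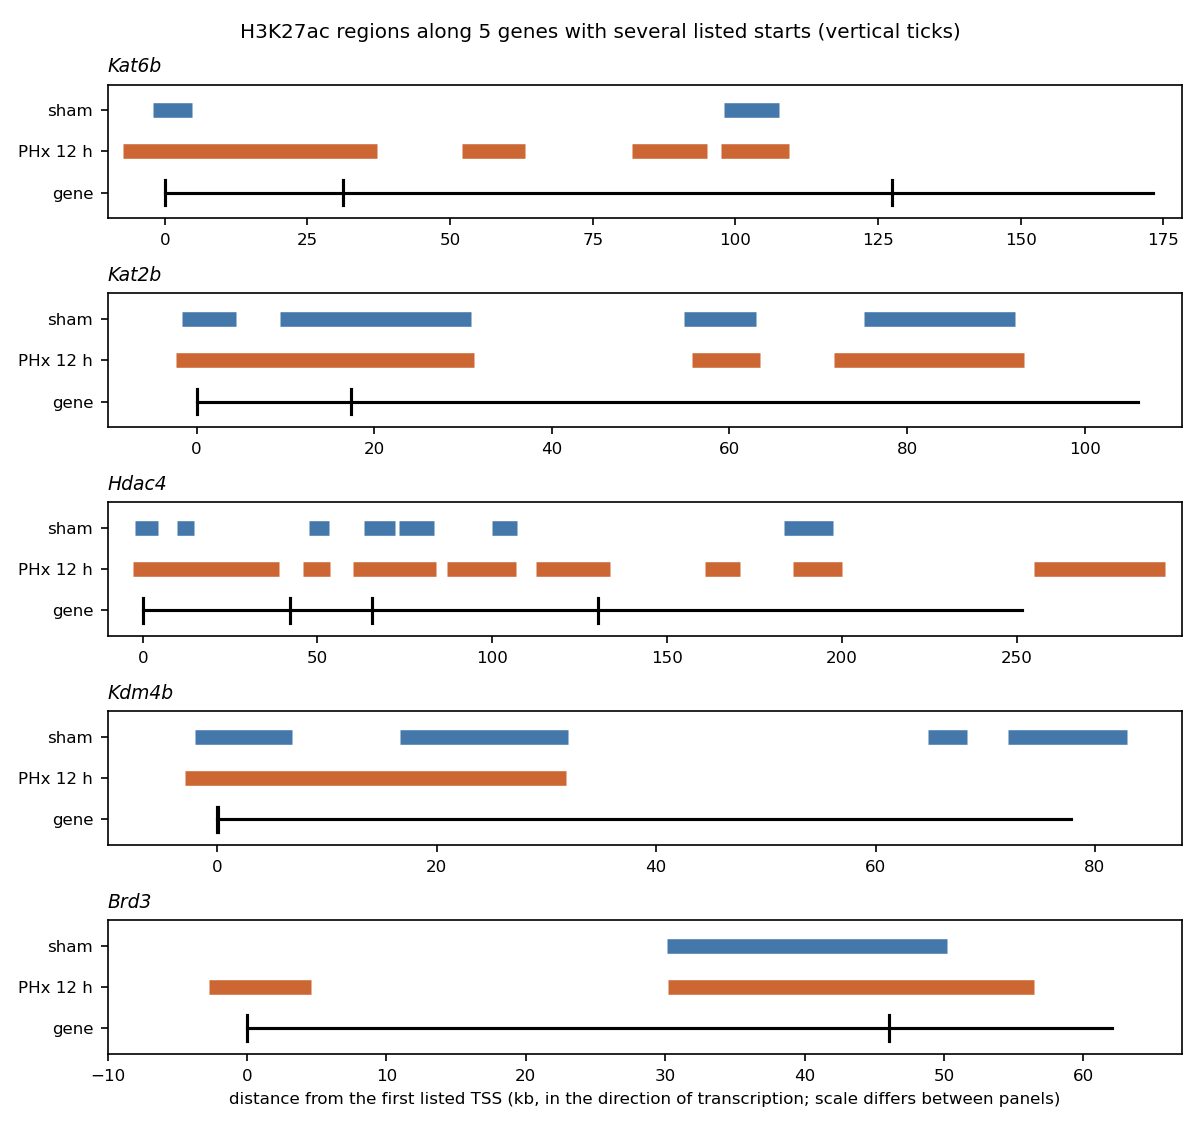
Regions of the sham list (blue) and the PHx 12 h list (orange) along Kat6b, Kat2b, Hdac4, Kdm4b and Brd3, in kb from the first listed TSS in the direction of transcription, with vertical ticks at listed starts on the black gene line. The first PHx region spans 44400 bp over 1 sham region at Kat6b and 33483 bp over 2 at Kat2b; at Brd3 only the first start differs between the groups.

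Of the 11 methyltransferase genes, 9 were marked in both groups, 1 in sham only and 1 in neither, against 59.1%, 8.19% and 14.9% of all genes. None of the 9 reached a 2-fold wider region, against 41.3% of all genes, and their median ratio was 1.51. Kmt2d, which places H3K4 monomethylation at enhancers, went from 8570 to 16795 bp. Setd2, which trimethylates H3K36, went from 10212 to 18166 bp (1.78). Both widened on both sides of the TSS.

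Kmt2b, which methylates H3K4 at CpG island promoters, was 8200 bp in sham and 9584 bp after PHx (1.17). The H4K20 methyltransferases Kmt5a and Kmt5b gave 16307 and 19358 bp (1.19) and 9202 and 14981 bp (1.63), and Kmt5a had the widest region of this group in both lists. Kmt5a, the monomethylating enzyme needed in dividing cells, was thus among the broad promoters already in sham liver, at percentile 82.2 of width. After PHx it stood at percentile 56.1.

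Kmt2e, a family member known more as a reader of methylated H3K4, had no region at its listed start. A region of 8186 bp in sham and of 10953 bp after PHx ended 9666 and 6525 bp upstream of it. Both were annotated to an exon of Kmt2e, so here too the listed start is an internal one.

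The arginine methyltransferase genes Prmt6 and Prmt7 had the narrowest regions of the writers in both lists. Prmt6, which methylates H3 arginine near the tail end, went from 3092 to 6181 bp, and Prmt7, a monomethylating enzyme, from 3695 to 5561 bp (1.51). Prmt3 had a sham region of 6921 bp (chr7:49423301-49430221) and no PHx region within 11581 bp. The sham region next to it, named for Gm45986, was listed in both groups, at 9604 and 8623 bp. In the PHx stretch 1 peak number of library 2 was in no listed region.

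Setd6, which methylates the NF-κB subunit RelA, and Setd4 were close to equal width in the groups. Setd6 went from 7341 to 7770 bp (1.06) and Setd4 from 6713 to 6305 bp (0.939). For Setd4 the upstream edge was at the same base in both lists, 2462 bp before the TSS.

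All 7 deacetylase genes carried a region in both groups, against 59.1% of all genes, and at all 7 it was wider after PHx (median ratio 1.54). Over all genes marked in both groups 91.5% were wider, so 7 of 7 is near that share. Their widths in sham ran from 5177 bp at Hdac2 to 23327 bp at Hdac5.

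Hdac4 and Hdac5 encode class IIa deacetylases, which move between nucleus and cytoplasm on phosphorylation and act with Hdac3 in corepressor complexes. The Hdac4 region at the first start went from 6608 to 41840 bp (6.33), almost wholly downstream, from 4335 to 39123 bp past the TSS. The PHx region (chr1:92068888-92110727) held 2 sham regions, and against their sum of 11470 bp the ratio was 3.65. Hdac4 also had regions elsewhere in the gene. Its start 65649 bp downstream was in both lists (8831 and 23730 bp), and the PHx region there also took in a sham region of 10091 bp. The start 130210 bp downstream was in the PHx list only (21312 bp). Regions covered 21.9% of Hdac4 in sham and 54.0% after PHx.

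Hdac5 had the widest region of the 43 genes in both lists, 23327 and 57666 bp (2.47). After PHx that region also covered the promoter of G6pc3, which encodes a glucose-6-phosphatase, and was named for it. In sham G6pc3 had a region of its own, and against the 31894 bp of both the ratio was 1.81. Counting only regions named for Hdac5, the gene would be marked in sham only.

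The class I deacetylases changed little in comparison. Hdac2, part of the NuRD, Sin3 and CoREST complexes, had 5177 and 7631 bp (1.47), and Hdac3, the enzyme of the NCoR complexes, 8591 and 13225 bp (1.54). Hdac11 had 18885 and 29196 bp (1.55), but the PHx region took in a sham region of 9011 bp upstream, and against the sum of 27896 bp the ratio was 1.05.

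At Hdac10 the region shifted over the TSS more than it widened. It went from 6034 to 8434 bp (1.40), while reach upstream went from 4241 to 692 bp and reach downstream from 1792 to 7741 bp. Covered length within 10 kb of the TSS went from 6034 to 12520 bp. The PHx value exceeds the width of this region, so another PHx region also lay in that window. Sirt5, a mitochondrial desuccinylase, had 5184 and 7042 bp (1.36).

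Of the 14 demethylase genes, 10 were marked in both groups, 2 after PHx only and 2 in sham only (71.4%, 14.3% and 14.3%, against 59.1%, 17.8% and 8.19% of all genes), and their median ratio was 1.33. The members of 1 subfamily did not move together. In the Kdm4 subfamily, which demethylates H3K9 and H3K36, Kdm4a went from 7783 to 17612 bp (2.26), Kdm4b from 8821 to 34763 bp (3.94), and Kdm4c was in the sham list only (5042 bp).

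For Kdm4b the PHx region covered 2 sham regions of 24170 bp together, against which the ratio was 1.44. Kdm4a was paired with a single sham region and extended downstream, from 5005 to 14190 bp past the TSS, so that regions covered 66.6% of the gene in sham and 94.0% after PHx. Kdm4c lay in a stretch with no PHx region for 2044933 bp, and in that stretch 1 PHx peak number of each library was in no listed region.

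Kdm1a and Kdm1b encode the flavin-dependent demethylases LSD1 and LSD2. Kdm1a, the CoREST enzyme acting on H3K4, had a sham region of 4577 bp (chr4:136327590-136332166) and no PHx region within 134746 bp, with 1 and 2 unlisted PHx peak numbers in the 2 libraries. Kdm1b went from 9583 to 22486 bp (2.35), and most of the gain was upstream, from 2206 to 13626 bp before the TSS. The paralogues thus went in opposite directions in the lists, a difference that was not tested.

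The H3K4 demethylase genes of the Kdm5 subfamily also differed. Kdm5b had the lowest ratio of all, from 13142 to 9102 bp (0.693). Its loss was mainly upstream, where reach went from 5105 to 1919 bp, and its rank went from percentile 73.9 to percentile 16.4. Kdm5c, on chromosome X, had a PHx region of 15878 bp (chrX:151003708-151019585), 11990 bp of it upstream of the TSS. The nearest sham region was 1634291 bp away, and unlisted sham peaks could not be counted there because no sham region followed on the chromosome.

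Kdm3b, an H3K9 demethylase, had a PHx region of 11941 bp and no sham region within 13066 bp, with 1 unlisted sham peak number in each library. Its paralogue Kdm3a was narrow in both lists, 3363 and 4667 bp (1.39). Kdm6a, the H3K27 demethylase of the Kmt2d complex, was the gene nearest to equal width, with 6042 and 5948 bp (0.984). Kdm7a went from 8645 to 16653 bp, mostly upstream, from 2313 to 9898 bp before the TSS.

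The CxxC-domain demethylases, which bind unmethylated CpG islands, changed little: Kdm2a from 7867 to 10044 bp (1.28) and Kdm2b from 9006 to 9915 bp (1.10). Kdm8 went from 4964 to 5609 bp (1.13). In the PHx list these 3 genes ranked low by width, at percentile 21.5 for Kdm2a, 20.8 for Kdm2b and 1.97 for Kdm8.

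Among the 5 bromodomain reader genes 4 were marked in both groups (80%, against 59.1% of all genes) and Brd3 at its first start after PHx only. Their median ratio was 1.59. The BET proteins, among them Brd2 and Brd3, bind acetylated histones and recruit elongation factors. Brd2 went from 9679 to 34280 bp (3.54; PHx region chr17:34326787-34361066) with 1 sham region in it, and gained on both sides, from 4736 to 22192 bp upstream and from 4942 to 12087 bp downstream.

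Brd3 had a PHx region of 7333 bp at its first start (chr2:27393079-27400411). No sham peak number was unlisted there, and the nearest sham region, named for Wdr5, was 5211 bp away. A start 46039 bp farther downstream in Brd3 was marked in both groups, by 20102 and 26243 bp. Counted at any start, Brd3 would be marked in both groups.

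Brd1, a subunit of acetyltransferase complexes, had 8010 and 9213 bp (1.15), and Brd7, a subunit of the PBAF remodeller, 4241 and 6636 bp (1.56). Ep400, the ATPase of the Tip60 complex, went from 10848 to 16796 bp (1.55), almost all of it upstream, from 854 to 6590 bp before the TSS.

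**Figure D4:**
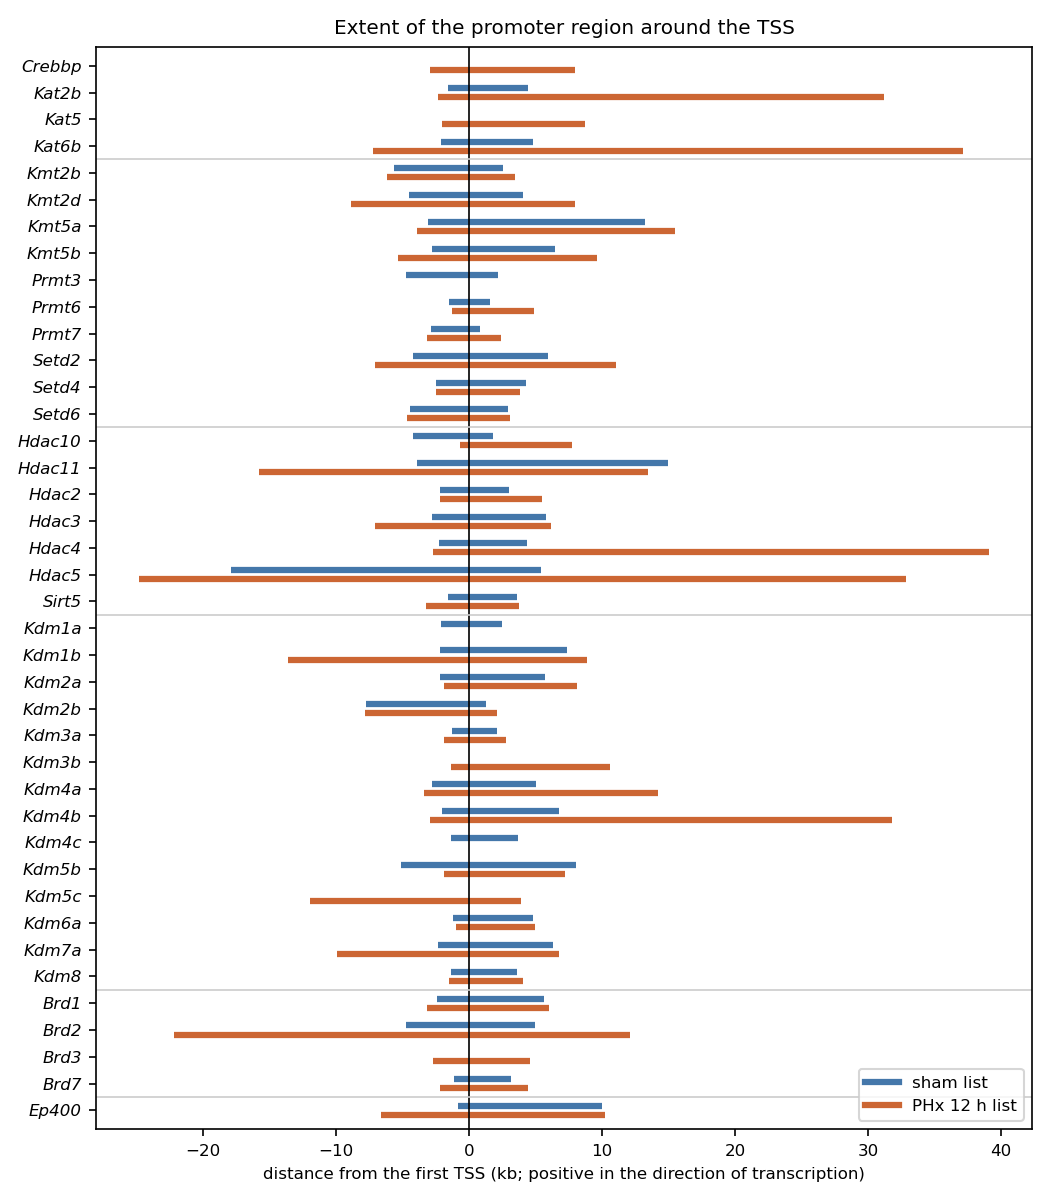
Extent of the promoter region around the first listed TSS, in kb and positive in the direction of transcription, for genes marked in either list; blue bars are the sham list and orange bars the PHx 12 h list, with grey lines between roles. Past 30 kb downstream of the TSS run the PHx bars of Kat6b, Hdac4, Kat2b, Kdm4b and Hdac5, at Hdac5 beyond the gene's end. The PHx bars of Brd2, Hdac11, Kdm1b and Kdm7a gain upstream.

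The regions were not centred on the TSS. At the 33 genes the median reach was 2462 bp upstream and 4830 bp downstream in sham, and 3262 and 7741 bp after PHx. Over all genes marked in both groups the values were 3314 and 4634 bp, and 6086 and 8780 bp. The region reached farther downstream than upstream at 26 of the 33 genes in sham and at 23 after PHx, against 60.8% and 61% of all genes. The acetylated domain of these genes thus lay mainly over the first part of the transcribed gene, and the upstream flank was shorter than the median over all genes in both groups.

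Widths can be changed by joining, so covered length in a fixed window was also measured. Within 10 kb of the TSS the median of the 43 genes went from 6921 to 11334 bp, against 6966 and 11962 bp over all genes. The median difference was 4007 bp, against 3011 bp over all genes, and in windows of 5 and 25 kb it was 904 and 5634 bp, against 1139 and 6302 bp. More was covered after PHx at 34 of the 43 genes (79.1%, against 74.5% of all genes) and less at 8. Of the 8 genes with 2-fold wider regions, Kat6b (2.48) and Brd2 (2.07) had a 2-fold ratio in this window, while it was 1.89 for Hdac4, 1.85 for Kat2b and 1.71 for Kdm4b. The window limits these ratios, since it leaves out the length beyond 10 kb in both lists. At Hdac5, with 15426 bp covered in sham, it was full after PHx, a ratio of 1.30. At Kat2b, covered length within 25 kb was 21667 bp in sham and 27301 bp after PHx. The ratio in the 10 kb window therefore does not give the size of the whole gain, in either direction.

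Of the 33 genes, 28 had 1 sham region paired with 1 PHx region. Their median ratio was 1.49, 25 were wider after PHx, and 4 were at least 2-fold wider. The other 5 PHx regions each held at least 2 sham regions. No region was shared by any pair of the 43 genes, so each value is from a region of its own. Most regions were built from 1 peak of each library, 31 of 33 in sham and 28 of 33 after PHx. After PHx, library 2 alone was split into several peaks at 4 genes and library 1 alone at 1, so most of these edges rest on a single peak in each library.

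Regions naming these genes more than 3 kb from a TSS made up a smaller share than over all regions. They were 13 of 52 in sham (25%, against 32.2% of all regions) and 7 of 48 after PHx (14.6%, against 24.6%). After PHx they belonged to Hdac4, Kat6b, Kmt2e and Setd4. Inside Kat6b, a region about 100 kb past the TSS was in both lists, with 9585 and 11893 bp, and 2 others of 11056 and 13127 bp were in the PHx list only. The sham list named 10 genes in such regions.

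The partners of these enzymes were read from a list of 120 other chromatin genes, of which 72 had a listed TSS. Of these, 56 were marked in both groups (77.8%), 8 in the PHx list alone (11.1%), 4 in the sham list alone (5.56%) and 4 in neither. The median ratio of the 56 was 1.66, and 18 were at least 2-fold wider (32.1%). These shares are close to those of the 43 genes, and the 2-fold share is likewise under the 41.3% of all genes. For these other chromatin genes, sham regions joined within a PHx region and unlisted peak numbers were not counted. Their ratios may therefore include joining, and absence from a list is not absence of the mark.

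The Tip60 complex is built around Kat5, marked after PHx only, and Ep400, marked in both groups. Its other subunits marked after PHx only were Trrap (5883 bp), the large scaffold, and Epc2 (9348 bp). Epc1, the paralogue of Epc2, went from 3578 to 58508 bp (16.4), the highest ratio among the 56. It was singled out after its value was seen, and joined sham regions were not counted there. The subunit and YEATS reader Yeats4 was in the sham list only (4825 bp), and Dmap1 in neither. Subunits of 1 complex therefore fell into all states.

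Of all 26 complex subunits placed, 19 were marked in both groups (73.1%, against 59.1% of all genes), among them corepressor subunits that hold the deacetylases. Ncor1, a scaffold of Hdac3, went from 7401 to 17573 bp (2.37). Gps2 of the same complex went from 9591 to 22113 bp (2.31), Tbl1x was in the PHx list only (21473 bp) and Tbl1xr1 in neither. Sin3b, a scaffold of Hdac1 and Hdac2, was in the PHx list only, with 27918 bp. The NuRD ATPase Chd4 went from 6236 to 24177 bp (3.88) and its partner Gatad2a from 6592 to 17145 bp (2.60), whereas Mta1 (1.08), Mta3 (1.12) and Gatad2b (1.17) changed little.

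At 4 of 4 placed subunit genes of H3K4 methyltransferase complexes the region was wider after PHx, near the 91.5% of all genes: Dpy30 from 2840 to 8987 bp (3.16), Ash2l from 4163 to 7966 bp (1.91), Wdr5 from 4537 to 7223 bp (1.59) and Paxip1 from 6215 to 9073 bp (1.46). Among enzymes outside the name pattern, the demethylase relative Jmjd1c had the widest PHx region of the list, 51838 and 119272 bp (2.30). The coactivator Ncoa3 went from 18962 to 85923 bp (4.53), and the H3K79 methyltransferase Dot1l from 18044 to 53419 bp (2.96). Further enzymes of the list were also wider, among them the methyltransferase gene Smyd2, from 5182 to 21346 bp (4.12). Some were near equal width or narrower after PHx. Among these were the methyltransferase genes Ehmt1 (1.05), Ehmt2 (1.04) and Nsd1 (0.979), and the acetyltransferase gene Naa60, from 11030 to 6050 bp (0.549). The median ratio of the 7 other methyltransferase genes marked in both groups was 1.09. Supt20, a subunit of the SAGA complex of Kat2b, was in the PHx list only (11300 bp). The readers Yeats2 (12353 bp) and Cbx7 (8004 bp) were in the sham list only, and Nat10 and Zmynd8 in neither.

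Of the genes that supply the substrates of these enzymes, 9 could be placed and all 9 were marked in both groups, against 59.1% of all genes. Their median ratio was 1.41, against 1.74 for all genes. Acly, which makes cytosolic acetyl-CoA from citrate, went from 17234 to 26260 bp (1.52). Mat1a, the liver enzyme that makes S-adenosylmethionine, went from 32160 to 45198 bp (1.41), while Mat2a, the form of other tissues, went from 7848 to 6604 bp (0.841). Ahcy, which clears the methylation product, went from 22332 to 46206 bp (2.07), and Nnmt, which methylates nicotinamide, from 6591 to 19129 bp (2.90).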

How the data were processed

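CUT&Tag libraries for H3K27ac were made from nuclei of frozen liver and sequenced as 150 bp read pairs, per the labels' protocols. Bowtie2, SEACR, ChIPseeker and DiffBind are named, without versions or roles, per the submitters' processing notes, as are GRCm39 and mm39, 1 mouse assembly. Peak thresholds and other filters: not given in the sources used here. The authors deposited 1 merged and annotated table of regions per group; per the file headers it holds positions, widths in bp, an annotation class, the assigned gene, the distance to its TSS and the joined peaks of both libraries, with no signal, score or count.

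From these, the region overlapping 1 kb on either side of the most upstream listed start was taken for each gene; where several overlapped, the nearest one counted. A gene with no row has no known state, since a wide region names 1 gene. Percentages over all genes use the 10925 genes with a row. Width limits were a ratio of 2 and of 0.5. No p-value was computed. The alternatives were windows of 0, 0.5 and 2 kb, any listed start, regions named for the gene, a minimum width of 5 kb, and other widths and windows. Python 3.11.15, pandas 2.3.3, numpy 2.4.6 and matplotlib 3.10.9 were used, and the scripts were tested on simulated data. Promoter sequences and gene classes came from RefSeq tables on GRCm38.p6. The members and gene lists were chosen with earlier results of these data known. Named genes are those marked in 1 group or neither, the 10 highest and 8 lowest ratios, the 2 nearest 1, the widest of each role, Crebbp, Ep300 and Ep400, and up to 3 other chromatin genes per state; further members and listed partners are named where their family or complex is described. Values of some genes are not reported here.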

Additional observations from a re-analysis of the deposited data

How the results depend on the processing

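With regions of at least 5 kb, 9 genes were marked after PHx only and 4 in neither list. Without genes that had unlisted peak numbers in the other group, 1 (Brd3) was left after PHx only and 0 in sham only. The count at least 2-fold wider was 3 by covered length within 10 kb, a window that wide regions fill. These were Kat6b, Brd2 and Hdac10, the last not among the 8 genes with 2-fold wider regions. The count was 5 over the sum of sham regions, 4 in 1-to-1 pairs and 4 over the group median. Narrower regions numbered 5 within 10 kb and 22 over the group median, where the median ratio was 0.866. The median covered difference was 904 bp within 5 kb. The cause was not tested. For 41 of the 43 genes the state was the same under all window, start and assignment choices run; Brd3 and Hdac5 were the exceptions. No paired analysis was possible because the results come from no test: the tables hold no value per library. Leaving out a library was not run for the same reason. Depth is unknown, so a missing region may be one that was not called.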
